A study of Drosophila melanogaster with 3 samples.

Results

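The regions described here are ChIP-seq peaks of the GFP-tagged transcription factor Ewg. At these peaks the relative signal of replicate 2 stood above the mean of replicates 1 and 3. They are 896 of 5852 peaks that could be measured in all 3 replicates, out of 6793 peaks in the authors' optimal set. They were selected on the signal itself. For each optimal peak the nearest summit within 100 bp was taken in the permissive list of each replicate, the signal was expressed relative to the replicate's own median across the 5852 peaks, and members had a log2 relative signal in replicate 2 at least 0.8 above the mean log2 relative signal of replicates 1 and 3. The signal values are therefore a description without a test, and the difference rests on 1 replicate. What the selection did not use is position, base composition and sequence, and these are compared with the other 4956 measured peaks.

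The study immunoprecipitated chromatin of whole Drosophila melanogaster embryos of mixed sex, collected from 0 to 14 h of development, from a transgenic line with GFP fused to the C-terminal end of Ewg. An anti-GFP antibody was used, and DNA had been sheared by sonication. All samples belong to 1 group of 3 biological replicates, and the labels give all of them the same stage, strain and antibody. The labels do not say whether the line keeps its untagged ewg gene. An embryo collection of this span mixes stages and tissues, so the signal averages over cells. Preparation of replicate 2, its depth and its biology cannot be told apart with 1 library of each replicate.

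Ewg (erect wing) is the fly relative of the vertebrate factor NRF-1. It is needed in neurons and in the indirect flight muscles, and NRF-1 binds a GC-rich palindrome found at many promoters of nuclear genes for mitochondrial proteins. Other sequences that mark open or active DNA in the fly embryo include the GAGA repeat bound by GAGA factor and Pipsqueak, the DNA replication-related element (DRE) at promoters of housekeeping genes, the site of the early activator Zelda, and E-boxes bound by basic helix-loop-helix proteins.

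The members differed from the other measured peaks first of all in base composition and in the letters at their summits. Windows of 201 bases centred on the summit are shown for 8 of the members named below, because they carry one of the motifs that set the members apart. They are read on the plus strand of dm6 from the RefSeq assembly, and are the windows in which motifs were searched. Capitals mark matches, on either strand, to TGCGCA, called the core site below, to the NRF-1 palindrome or to GAGAGA. The first holds the palindrome overlapping a core site, the windows at beat-IIa, lace and slp1 hold a core site, those near CG4935, CG42240 and side-VI hold GAGA matches, and CG13937 holds both. The gene named is the one with the nearest protein-coding transcript start.
Eip75B, chr3L:17937473-17937673: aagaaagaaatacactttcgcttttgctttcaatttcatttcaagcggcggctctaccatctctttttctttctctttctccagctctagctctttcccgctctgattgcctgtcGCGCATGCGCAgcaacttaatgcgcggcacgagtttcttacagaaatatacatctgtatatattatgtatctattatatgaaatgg
CG4935, chr2L:16269544-16269744: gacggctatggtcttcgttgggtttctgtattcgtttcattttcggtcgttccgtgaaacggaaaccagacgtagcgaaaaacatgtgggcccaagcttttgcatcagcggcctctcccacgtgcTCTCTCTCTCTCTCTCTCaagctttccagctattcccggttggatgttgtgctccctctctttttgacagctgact
beat-IIa, chr3R:17366376-17366576: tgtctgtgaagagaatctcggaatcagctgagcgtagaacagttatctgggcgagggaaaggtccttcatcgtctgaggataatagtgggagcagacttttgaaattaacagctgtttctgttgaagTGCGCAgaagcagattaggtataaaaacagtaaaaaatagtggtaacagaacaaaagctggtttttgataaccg
lace, chr2L:15492239-15492439: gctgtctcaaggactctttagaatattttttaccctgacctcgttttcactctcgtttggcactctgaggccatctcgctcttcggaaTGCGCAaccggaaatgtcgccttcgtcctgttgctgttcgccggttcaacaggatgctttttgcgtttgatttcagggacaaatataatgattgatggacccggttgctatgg
CG42240, chrX:6330623-6330823: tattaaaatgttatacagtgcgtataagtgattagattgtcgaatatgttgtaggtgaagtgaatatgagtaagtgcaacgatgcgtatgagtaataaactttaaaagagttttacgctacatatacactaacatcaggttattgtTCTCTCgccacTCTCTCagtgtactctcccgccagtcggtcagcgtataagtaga
CG13937, chr3L:1883242-1883442: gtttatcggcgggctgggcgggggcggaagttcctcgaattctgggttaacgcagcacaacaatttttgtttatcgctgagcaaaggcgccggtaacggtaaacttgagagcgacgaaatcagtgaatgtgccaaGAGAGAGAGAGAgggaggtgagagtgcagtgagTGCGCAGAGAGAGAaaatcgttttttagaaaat
slp1, chr2L:3825430-3825630: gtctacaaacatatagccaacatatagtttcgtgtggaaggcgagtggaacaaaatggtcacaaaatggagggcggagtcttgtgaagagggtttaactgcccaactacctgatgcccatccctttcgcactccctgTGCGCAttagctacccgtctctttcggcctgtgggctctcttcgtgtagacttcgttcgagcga
side-VI, chr3R:10970992-10971192: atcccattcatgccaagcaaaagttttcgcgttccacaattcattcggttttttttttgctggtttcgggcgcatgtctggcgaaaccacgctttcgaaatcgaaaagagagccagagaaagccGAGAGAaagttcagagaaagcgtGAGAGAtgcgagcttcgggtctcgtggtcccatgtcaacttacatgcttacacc

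These 8 windows lie in introns, between genes or just upstream of transcript starts. The first summit lay 24241 bp downstream of the nearest start of Eip75B, an ecdysone-induced nuclear receptor gene. The summit nearest to CG4935 lay 7503 bp downstream of its start, within an intron of crp, which encodes a basic helix-loop-helix protein. The summits at CG42240, slp1, CG13937 and beat-IIa lay 119, 145, 301 and 357 bp upstream of a start. Those near side-VI and lace lay 1289 and 6788 bp upstream.

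The deposited signal had a median over the measured peaks of 123.7 in replicate 2, against 81.39 in replicate 1 and 84.07 in replicate 3. After division by these medians, the members had a median relative signal of 1.55 in replicate 2, against 0.741 in replicate 1 and 0.755 in replicate 3. In the other measured peaks it was 0.913 in replicate 2, against 1.05 in each of replicates 1 and 3. The median log2 difference of the members was 1.06, with a range of 0.80 to 2.49. The members are 15.3% of the measured peaks, and that share is fixed by the threshold. At the other end of the scale, 494 peaks had a log2 difference of −0.8 or below. Values given below for single peaks are deposited signals, not divided by the medians. Part of each gap is therefore shared with other peaks. In the other measured peaks the median deposited signal was 113 in replicate 2, against 85.48 in replicate 1 and 88.35 in replicate 3.

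**Figure D1:**
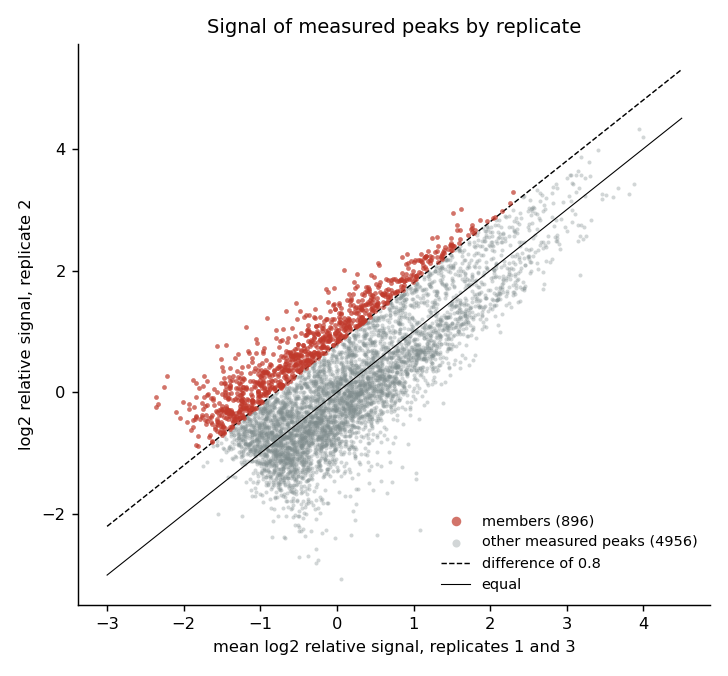
Log2 relative signal of each measured peak in replicate 2 (vertical axis) against the mean of replicates 1 and 3 (horizontal axis). Red points are the 896 members, which lie on or above the dashed line by selection, and grey points are the other 4956 measured peaks. The members run along most of the range of signal and are sparse among the strongest peaks.

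Replicates 1 and 3 disagreed with each other more often among the members. Both enter the rule through their mean, so this contrast is a description and not independent of the selection. Of the members, 198 (22.1%) had these replicates at least 0.8 apart on the log2 scale, against 431 (8.7%) of the other measured peaks. Replicate 2 lay above both other replicates in 889 members, and at least 0.8 above each of them in 520. The members were spread unevenly over signal. With all measured peaks split into 5 classes of equal size by the mean log2 relative signal of replicates 1 and 3, which enters the rule, members made up 30.9% of the weakest class, then 13.8%, 12.4% and 11.7%, and 7.69% of the strongest. The deposited −log10 q stood at its ceiling in replicate 2 for 100% of members, against 31% in replicate 1 and 53.2% in replicate 3. In the other measured peaks the shares were 96.4% in replicate 2, against 49.2% in replicate 1 and 74.3% in replicate 3. No 2 measured peaks shared a summit in any replicate. Of the 941 optimal peaks that could not be measured, 109 had a summit within 100 bp in replicate 2 and in neither other replicate, and 231 had one in replicates 1 and 3 and not in replicate 2.

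The 3 members just inside the threshold had log2 differences that round to 0.80. They lay nearest to CG18371, in an intron of the Notch coactivator gene mam, at the planar polarity gene pk and at bma. The 3 peaks just outside also round to 0.80 and lay nearest to ras, in an intron of CG5910 and at the promoter of RYBP, which encodes a Polycomb-associated protein.

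The member with the largest difference was the CG4935 peak in the crp intron, with its summit at position 16269644 of chromosome 2L. Its deposited signal was 148.8 in replicate 2, against 20.59 in replicate 1 and 15.35 in replicate 3, and its log2 difference was 2.49. Both other replicates were low, and the same held at beat-IIa, a member of the beat family of neuronal surface proteins, with 117.4 in replicate 2, against 15.99 in replicate 1 and 16.22 in replicate 3. The intronic peak of aPKC, the cell polarity kinase, had 131.7 in replicate 2, against 17.18 in replicate 1 and 17.49 in replicate 3. In the intron of L (Lobe), a gene of eye growth, the signal was 210.2 in replicate 2, against 24.91 in replicate 1 and 31.39 in replicate 3. The peak upstream of lace, which encodes a subunit of serine palmitoyltransferase, had 210.9 in replicate 2, against 25.68 in replicate 1 and 35.94 in replicate 3.

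The 15 largest differences included a peak at EcR, a steroid response gene, and a peak near Kr, an embryonic patterning gene. Neither marks a group. Members made up 15.4% of measured peaks at ecdysone response genes and 17.1% at segmentation genes, near the 15.3% over all measured peaks. A promoter peak of EcR, the ecdysone receptor gene, had 105.2 in replicate 2, against 17.78 in replicate 1 and 14.69 in replicate 3. A peak 793 bp upstream of the gap gene Kr, within an intron of CG9380, had 137.8 in replicate 2, against 20.15 in replicate 1 and 26.33 in replicate 3. Replicates 1 and 3 were similar at both. They were not at CG42240, with 288.9 in replicate 2, against 125 in replicate 1 and 15.49 in replicate 3, where replicate 3 alone was far below replicate 2. The promoter peak of the sorting nexin gene snz showed the opposite order, with 149.5 in replicate 2, against 13.66 in replicate 1 and 44.82 in replicate 3. The 15 peaks as a whole spanned log2 differences of 1.99 to 2.49. The remainder lay at CG15803, Gapvd1, CG12107, CG13937, Pde8 and HmgZ.

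The members that were strongest in replicates 1 and 3 lay mostly at promoters. The strongest, 166 bp upstream of CG13532, ranked 61 in the optimal set, with 1213 in replicate 2, against 465.2 in replicate 1 and 353.6 in replicate 3. The promoter of wnd, the kinase of axon injury signalling, had 1067 in replicate 2, against 407.4 in replicate 1 and 385 in replicate 3. The promoter of cpx, which encodes complexin of the synaptic release machinery, had 906.6 in replicate 2, against 349.3 in replicate 1 and 340.2 in replicate 3. The log2 difference was 1.00 at CG13532, 0.85 at wnd and 0.81 at cpx, and replicates 1 and 3 lay close to each other at wnd and cpx. The others of the 10 lay at RabX4, at pum (a translational repressor), trv, CG33144 and Toll-7, in an intron of the RNA-binding protein gene msi, and 14937 bp upstream of Sodh1, with log2 differences of 0.82 to 0.95.

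Of the 16 features compared, high GC content had the largest odds ratio. Within 100 bp of the summit the members had a median GC content of 50.2% (quartiles 45.3% and 54.2%), against 37.3% (32.3% and 45.8%) in the other measured peaks. The 494 peaks weaker in replicate 2 had a median of 33.3%. The 939 peaks just below the threshold, with a log2 difference of 0.4 to below 0.8, had a median of 48.3%. High GC content was thus graded along the difference and not particular to the members. Of the members, 812 (90.6%) lay above the median of all measured peaks, 39.3%, against 2067 (41.7%) of the others. The odds ratio was 13.5 (95% interval 10.7 to 17.2, adjusted exact p = 1.08e-178), with 8.67 when the members were chosen without replicate 1 and 11.2 without replicate 3. All such p-values are from Fisher's exact test, two-sided, adjusted after Benjamini and Hochberg over the 16 features compared. Peaks are not replicates, so this and the p-values below describe these 2 sets of peaks and not the spread between embryo collections.

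The share of peaks that were members climbed with GC content and levelled at 50% GC and above. Below 30% GC, 7 of 765 peaks were members (0.915%). From 40% to 45% GC it was 118 of 787 (15%), from 50% to 55% it was 252 of 652 (38.7%), and at 55% and above 201 of 531 (37.9%). Over the same bins the median log2 difference of all measured peaks went up with GC, with −0.38 below 30% GC and 0.68 at 55% and above. The median difference between replicates 1 and 3 stayed between −0.04 and 0.05. Across the 5852 peaks, which share their libraries, the log2 difference of replicate 2 had a Pearson r of 0.564 with GC content (Spearman 0.585), and the difference of replicate 1 minus replicate 3 had 0.0162 (Spearman 0.0452). The same held at each level of signal. The members' median GC content was 48.8% to 52.2% across the 5 classes of signal, against 36.8% to 40.3% in the other peaks. Whether base composition had a part in the signal of replicate 2 was not tested.

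**Figure D2:**
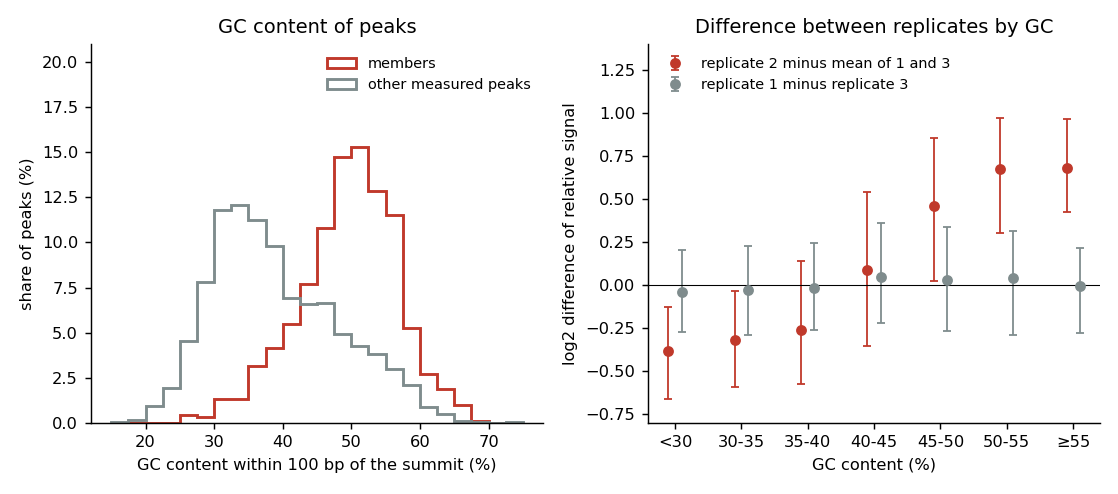
Left, share of members (red) and of other measured peaks (grey) by GC content within 100 bp of the summit. Right, median log2 difference of relative signal with its quartiles by GC content, for replicate 2 minus the mean of replicates 1 and 3 (red) and for replicate 1 minus replicate 3 (grey). The red medians climb with GC content to 0.68, and the grey ones stay within 0.05 of 0.

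Related measures of base composition differed less. The ratio of observed to expected CpG dinucleotides had a median of 1.03 in members and 0.957 in other peaks. Soft-masked repeats covered a median of 10.9% of the window in members and 18.4% in other peaks.

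The members held more core sites and GAGA matches at their summits. The core site TGCGCA lay within 100 bp of the summit in 343 members (38.3%), against 697 other peaks (14.1%), an odds ratio of 3.79 (3.23 to 4.44, adjusted exact p = 4.26e-57). It was present in 17.8% of all measured peaks. GAGAGA lay in 288 members (32.1%), against 718 other peaks (14.5%), an odds ratio of 2.80 (2.37 to 3.29, adjusted exact p = 1.22e-32), and in 17.2% of all measured peaks. One or the other was present in 531 members (59.3%) and in 1287 other peaks (26%). In the 939 peaks with a log2 difference of 0.4 to below 0.8, the core site was present in 31% and GAGAGA in 26.6%. The windows near CG13937 and L carried both.

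Both motifs contribute to the GC content of the window they sit in, so they were also compared among peaks of like composition. Among the peaks above the median GC content, 40.3% of members held a core site, against 26.9% of other peaks (odds ratio 1.83, 1.54 to 2.18, adjusted exact p = 4.06e-11), and 34.1% held GAGAGA, against 21.2% (1.93, 1.6 to 2.31, adjusted exact p = 2.22e-11). Members in that stratum still had the higher median GC content, 50.7% against 47.3%. Between 45% and 55% GC, where the medians were 50.2% and 49.3%, the odds ratio was 1.48 for the core site (1.17 to 1.87, adjusted exact p = 0.00381) and 1.72 for GAGAGA (1.35 to 2.19, adjusted exact p = 0.000124). The core site differed both at promoters, where 33.3% of members held it against 14.9% of other peaks (adjusted exact p = 4.37e-18), and outside them, where the shares were 43.8% and 13.4% (adjusted exact p = 4.72e-43).

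Core sites lay close to the summits. Where a core site was present, its median distance from the summit was 22.5 bp in members and 28.5 bp in other peaks, and 54.2% and 43.9% lay within 25 bp. In bins of 50 bp, the core site was found in 15.8% and 16.9% of members on the 2 sides of the summit. In other peaks the same bins held 5.08% and 5.29%, and at 450 to 500 bp downstream the shares were 0.893% and 1.17%. GAGAGA was found in 10.7% and 12.6% of members in the bins beside the summit, against 9.26% and 7.92% in the next bins outward. In other peaks it was not more frequent at the summit, with 4.38% and 3.71% beside it and 4.74% in each of the next bins.

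**Figure D3:**
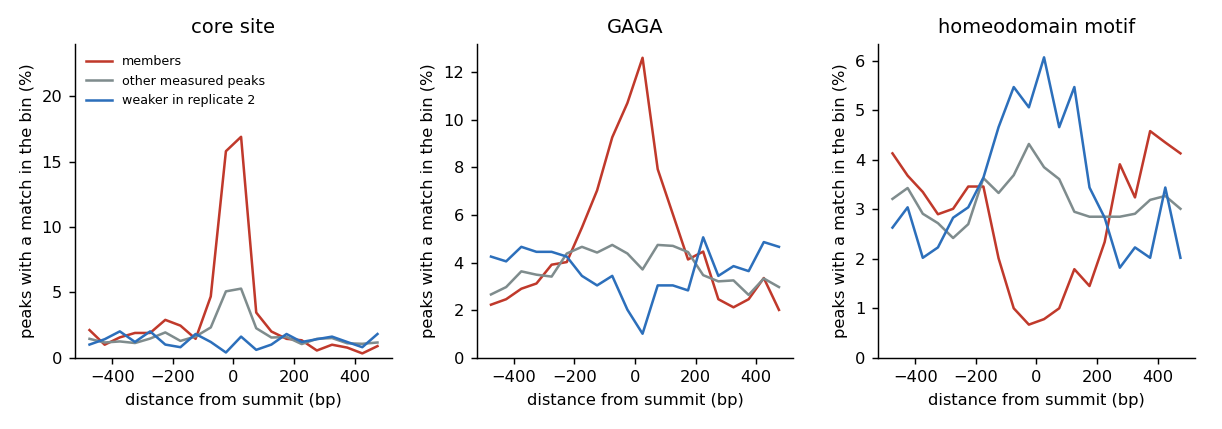
Share of peaks with a motif match in each 50 bp bin, by distance from the summit, for members (red), other measured peaks (grey) and peaks weaker in replicate 2 (blue, a subset of the grey ones). In members, the core site and GAGA are most frequent at the summit and the homeodomain motif is least frequent there. In the other peaks the core site is most frequent at the summit, GAGA is not, and the homeodomain motif reaches 4.32% there.

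The homeodomain core and the DRE were rarer in the members. The homeodomain core TAATTA lay in 30 members (3.35%), against 699 other peaks (14.1%), an odds ratio of 0.211 (adjusted exact p = 1.32e-23). Among peaks above the median GC content the shares were 2.71% and 4.6% and the adjusted exact p was 0.0521. Between 45% and 55% GC they were 2.49% and 4.1% (odds ratio 0.598, 0.283 to 1.18, adjusted exact p = 0.403). The homeodomain core was thus not called in either GC stratum. The DRE, TATCGATA, lay in 12 members (1.34%), against 167 other peaks (3.37%), an odds ratio of 0.389 (0.196 to 0.702, adjusted exact p = 0.000959). It rested on replicate 1, since the odds ratio was 0.746 without that replicate (adjusted exact p = 0.25) and 0.286 without replicate 3. Among GC-rich peaks it lay in 6 members (0.739%), against 98 other peaks (4.74%), an odds ratio of 0.150 (0.0534 to 0.339, adjusted exact p = 3.07e-08). One of the members with a DRE was the promoter peak of Gapvd1. The M1BP site GGTCACACT, another mark of housekeeping promoters, lay in 1.79% of members and 2.42% of other peaks (odds ratio 0.733, adjusted exact p = 0.298), and the direction turned without replicate 1 (1.21, against 0.481 without replicate 3). Among peaks above the median GC content the shares were 1.48% and 3.53% (adjusted exact p = 0.00913). Between 45% and 55% GC the M1BP site was not called, with 2.08% and 3.08% (odds ratio 0.669, 0.289 to 1.42, adjusted exact p = 0.776). Across all measured peaks TAATTA was present in 12.5%, the DRE in 3.06% and the M1BP site in 2.32%. In the 939 peaks with a log2 difference of 0.4 to below 0.8, the shares were 5.11%, 3.41% and 3.09%.

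The full NRF-1 palindrome was rare in both sets. It lay in 27 members (3.01%), against 92 other peaks (1.86%), an odds ratio of 1.64 (1.02 to 2.56, adjusted exact p = 0.0352), and in 2.03% of all measured peaks. The call was lost without replicate 1 (1.59, adjusted exact p = 0.0588) and without replicate 3 (1.19, adjusted exact p = 0.442). Among GC-rich peaks the direction turned, with 3.08% of members against 4.02% of other peaks (odds ratio 0.759, 0.461 to 1.21, adjusted exact p = 0.517). At promoters the palindrome lay in 16 members (3.41%), against 23 other peaks (1.01%), an odds ratio of 3.45 (1.69 to 6.88, adjusted exact p = 0.000575). Outside promoters the odds ratio was 1.00. This split was not matched for GC content. In the 939 peaks with a log2 difference of 0.4 to below 0.8, the palindrome was present in 4.15%. Of the 119 measured peaks with the palindrome, 83 also held a core site, so the 2 are not independent. The strong promoter peak of RabX4, a small GTPase gene, was 1 of the 27.

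Of the other motifs, both E-boxes and the CA repeat were called over all peaks and not among GC-rich peaks. The E-box CAGCTG lay in 17.6% of members and 11.1% of other peaks (odds ratio 1.72, adjusted exact p = 2.76e-07), the Twist-type E-box CACATG in 12.6% and 8.80% (1.5, adjusted exact p = 0.000765) and the repeat CACACACA in 12.7% and 6.26% (2.18, adjusted exact p = 5.42e-10). Among GC-rich peaks their odds ratios were 1.18 (adjusted exact p = 0.29), 1.1 (adjusted exact p = 0.523) and 1.11 (adjusted exact p = 0.523). In all measured peaks they were present in 12.1%, 9.38% and 7.25%. In the 939 peaks with a log2 difference of 0.4 to below 0.8, the shares were 17.5%, 13.2% and 12%, close to those of the members. The Zelda site CAGGTAG lay in 10 members (1.12%) and in 0.706% of other peaks (adjusted exact p = 0.24). One of the 10 was the slp1 promoter peak. No match to any of the 10 motifs was found in 200 members (22.3%), among them the peaks at Pde8 and HmgZ and the peak upstream of Kr.

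**Figure D4:**
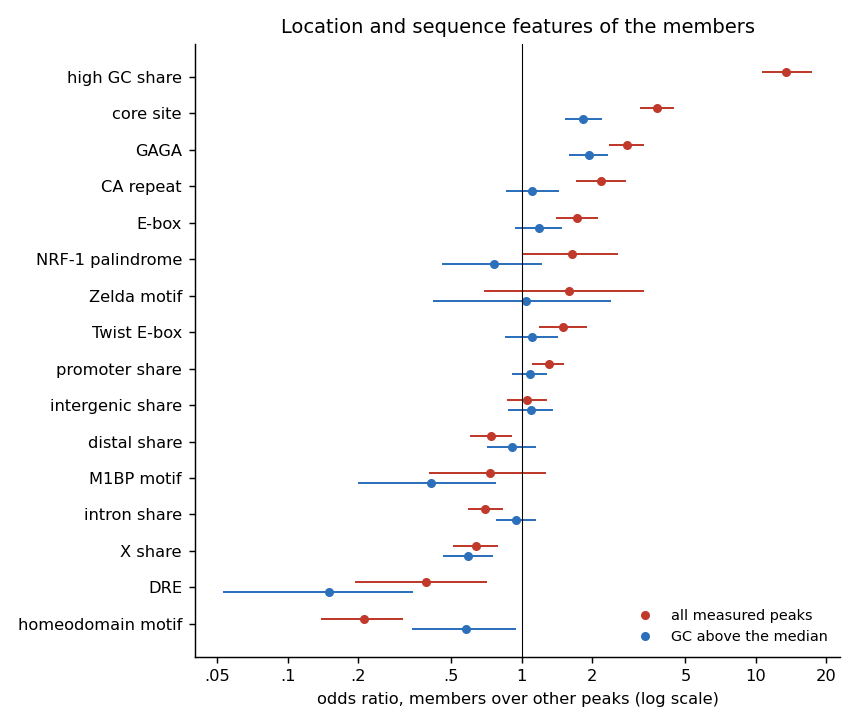
Odds ratio of each location or sequence feature in members over other measured peaks, on a log scale, with 95% intervals, for all measured peaks (red) and for peaks above the median GC content (blue). The core site, GAGA, homeodomain motif, DRE and X chromosome features keep intervals that leave out 1 in both comparisons. Of these, the homeodomain motif was not called among GC-rich peaks after adjustment (adjusted exact p = 0.0521). The intervals of the E-box, the CA repeat, promoters and introns include 1 among GC-rich peaks.

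By location, 469 members (52.3%) were promoter peaks, with the summit within 500 bp of a protein-coding transcript start, against 2271 other peaks (45.8%). The odds ratio was 1.30 (1.12 to 1.5, adjusted exact p = 0.000641), and without replicate 3 it was 1.12 (adjusted exact p = 0.134). Intronic peaks made up 26.2% of members and 33.8% of other peaks (0.698, 0.592 to 0.821, adjusted exact p = 1.78e-05), and peaks over 5000 bp from any start 15.6% and 20% (0.739, 0.605 to 0.899, adjusted exact p = 0.00275). Intergenic peaks made up 18.5% and 17.8% (1.05, 0.869 to 1.27, adjusted exact p = 0.603). None of these location differences was called among GC-rich peaks, where the odds ratio was 1.08 for promoters (adjusted exact p = 0.523), 0.948 for introns (adjusted exact p = 0.617) and 0.908 for distal peaks (adjusted exact p = 0.523). They were not particular to the members either. Of the 939 peaks with a log2 difference of 0.4 to below 0.8, 52.9% were promoter peaks, 24.1% intronic and 13.2% distal.

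The X chromosome was under-represented at like GC content as well. It held 120 members (13.4%), against 969 other peaks (19.6%), an odds ratio of 0.636 (0.514 to 0.783, adjusted exact p = 1.78e-05). Among GC-rich peaks the odds ratio was 0.591 (0.467 to 0.744, adjusted exact p = 1.21e-05), and between 45% and 55% GC it was 0.599 (0.433 to 0.821, adjusted exact p = 0.00381). The median GC content of measured peaks on X was 39.8%, and 11% of them were members, against 15% to 17.3% on the major autosomal arms. Of the 939 peaks with a log2 difference of 0.4 to below 0.8, 16.1% lay on X. Chromosome 4 had 1 member among 16 measured peaks.

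Members lay near 740 protein-coding genes by nearest transcript start, and 123 of these had 2 or more. The prospero gene pros, a homeodomain factor of neuroblast daughters, was nearest to 5 members of its 8 measured peaks, and 6 genes were nearest to 4 members each. These were all 4 measured peaks of CG12347 and of Srrm234, 4 of 5 at Glut4EF, 4 of 8 at abd-A, and 4 of 11 at both Abd-B and CG32264. These 7 genes were picked after their values were seen. At pros, the member with the largest difference lay 17633 bp upstream, with 187.3 in replicate 2, against 50.59 in replicate 1 and 58.62 in replicate 3. All 4 members nearest to CG12347 lay in introns of Rim, an active zone protein gene, which hosts them although it is not the nearest start. The strongest of these had 447.1 in replicate 2, against 188.5 in replicate 1 and 132.9 in replicate 3.

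Linking members within 20 kb of each other gave 696 loci, of which 550 held a single member and 5 held 5 members each. A locus runs from its first member to its last, and these 5 were picked for their member counts. Their shares of members, given below, are therefore high by construction. The nearest measured peak was itself a member for 190 members (21.2%), against 741 other peaks (15%). At the locus of Reph and slp1 on chromosome 2L, 5 of 7 measured peaks over 22157 bp were members. The slp1 promoter peak, at a forkhead segmentation gene, had 164.1 in replicate 2, against 21.22 in replicate 1 and 57.69 in replicate 3. At the locus of the homeodomain genes otp and Rx on chromosome 2R, all 5 measured peaks were members. An intergenic peak 2446 bp upstream of Rx had 298 in replicate 2, against 29 in replicate 1 and 142.7 in replicate 3, so that replicate 1 alone was far below the others.

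The locus of rhea, the talin gene of muscle attachment, had 5 members among 7 measured peaks on chromosome 3L. Its promoter peak 279 bp upstream of a start had 597.9 in replicate 2, against 151 in replicate 1 and 162 in replicate 3, with replicates 1 and 3 close together. On chromosome 2L, 5 of 13 measured peaks around CG14042, CG31650, CG9121 and qtc were members. The qtc promoter peak with the larger signal had 713.5 in replicate 2, against 229.3 in replicate 1 and 235.3 in replicate 3. On chromosome 3R, 5 of 6 measured peaks at pum, D1 and CG8420 were members. Their median GC content over all 6 was 37.1%, below the 39.3% of all measured peaks, so this cluster was poorer in GC than the members as a whole.

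Genes of neuronal function had the largest shares of members among lists with at least 20 measured peaks. Of 63 measured peaks nearest to genes of synaptic and neuronal function, 24 (38.1%) were members and 0 were among the peaks weaker in replicate 2, against 15.3% and 8.44% over all measured peaks. The median log2 difference was 0.70, against −0.03 over all measured peaks. Of 33 measured peaks at the dpr, DIP, beat and side families of neuronal recognition proteins, 12 (36.4%) were members, with a median of 0.71. A gene can stand in more than 1 list. These lists were not tested, and their peaks were also richer in GC, with median GC contents of 51.2% and 48.3% against 39.3%. Among peaks of at least 45% GC, members made up 19 of 43 (44.2%) and 9 of 19 (47.4%), against 34.3% over all measured peaks of that composition. Below 45% GC they made up 5 of 20 (25%) and 3 of 14 (21.4%), against 5.54%. These 2 strata, also used for the lists below, are wide, and GC content was not matched within them. Over all measured peaks the share of members was 28.5% from 45% to 50% GC and 38.7% from 50% to 55%. Under 45% GC it ran from 0.915% below 30% GC to 15% from 40% to 45%.

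In the neuronal list the largest difference was at the promoter of RhoGAP100F, which encodes the synapse assembly protein Syd-1, with 193.3 in replicate 2, against 41.03 in replicate 1 and 43.91 in replicate 3. An intronic peak of Syt1, the synaptic calcium sensor, had 146.1 in replicate 2, against 36.17 in replicate 1 and 32.92 in replicate 3. An intronic peak of fne, a neuronal RNA-binding protein of the ELAV family, had 380.5 in replicate 2, against 97.59 in replicate 1 and 110.7 in replicate 3. In all of these, replicate 2 was far above 2 replicates that lay close together. The active zone gene brp had 3 measured peaks, all of them members. In the recognition families, the promoter peak of dpr19 had 524.9 in replicate 2, against 127.3 in replicate 1 and 114.8 in replicate 3. The peak upstream of side-VI had 154.5 in replicate 2, against 28.24 in replicate 1 and 43.01 in replicate 3.

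Developmental regulators came next. Members made up 16 of 60 measured peaks at Hox and homeotic genes (26.7%), 16 of 67 at neural fate transcription factors (23.9%) and 14 of 67 at axon guidance and adhesion genes (20.9%). Among Hox genes the largest differences were at the abd-A promoter, with 134.7 in replicate 2, against 47.61 in replicate 1 and 20.63 in replicate 3, and 18994 bp downstream of Dfd, with 138.3 in replicate 2, against 32.95 in replicate 1 and 35.1 in replicate 3. Of the neural fate genes, pdm2, a POU factor of neuroblasts, had 195.4 in replicate 2, against 38.43 in replicate 1 and 73.31 in replicate 3. In an intron of Dscam1, a surface receptor of neurite self-recognition, the signal was 949.9 in replicate 2, against 241.4 in replicate 1 and 231.7 in replicate 3. CadN and Sema1a, which encode N-cadherin and a semaphorin, had log2 differences of 1.23 and 1.21 at their leading members. At or above 45% GC, members made up 14 of 38 Hox peaks (36.8%), 13 of 33 neural fate peaks (39.4%) and 9 of 25 axon guidance peaks (36%), against 34.3% over all measured peaks of that composition. Below 45% GC they made up 2 of 22 (9.09%), 3 of 34 (8.82%) and 5 of 42 (11.9%), against 5.54%.

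Shares near the background were seen at Notch and EGF receptor pathway genes (9 of 50, 18%), segmentation genes (12 of 70, 17.1%), ecdysone response genes (8 of 52, 15.4%) and mesoderm and muscle genes (7 of 56, 12.5%). The members with the largest differences in these groups included promoter peaks of pnt, an ETS effector of EGF receptor signalling (1.30), and of kirre, an adhesion protein of myoblast fusion (1.63). Glial genes had 3 members among 15 measured peaks. One of these, the promoter peak of gcm, which directs glial fate, had 354.8 in replicate 2, against 87.41 in replicate 1 and 94.12 in replicate 3. Wnt pathway genes had 4 of 38 (10.5%), led by an intronic peak of the co-receptor gene arr (1.63). Genes of the maternal to zygotic transition had 3 of 24 (12.5%), all nearest to Kr.

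Cytosolic ribosomal protein genes had the lowest share of the 15 lists with at least 20 measured peaks. Members made up 2 of their 55 measured peaks (3.64%), and these lay near RpLP2, in an intron of Cdk4, and near RpS10a. The list's median GC content was 43.8%, above that of all measured peaks, and at or above 45% GC the count was 1 of 21 (4.76%). Members were 2 of 30 at respiratory chain and ATP synthase genes (6.67%, at UQCR-C1 and ATPsynF), and 2 of 25 at replication and cell cycle genes (8%, at CycB3 and dap). The median GC contents of these lists were 36.3% and 36.8%, and at or above 45% GC the counts were 2 of 7 (28.6%) and 1 of 7 (14.3%), against 34.3%. Mitochondrial ribosomal protein genes had 2 of 12 (16.7%), of which the peak nearest to mRpL13 lay in an intron of the LIM-homeodomain gene tup. At Polycomb, trithorax and insulator genes 2 of 34 were members (5.88%, at psq and ph-d). Another 10 (29.4%) were weaker in replicate 2, against 8.44% over all measured peaks. These 10 lay nearest to a few genes of the list, namely Trl, trx, ph-p, ph-d and Su(z)12. The median log2 difference of the list was −0.41. Its median GC content was 37.1%, and at or above 45% GC 2 of 8 (25%) were members. Of 5 measured peaks at cuticle protein genes, the one upstream of Cpr100A was a member.

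**Figure D5:**
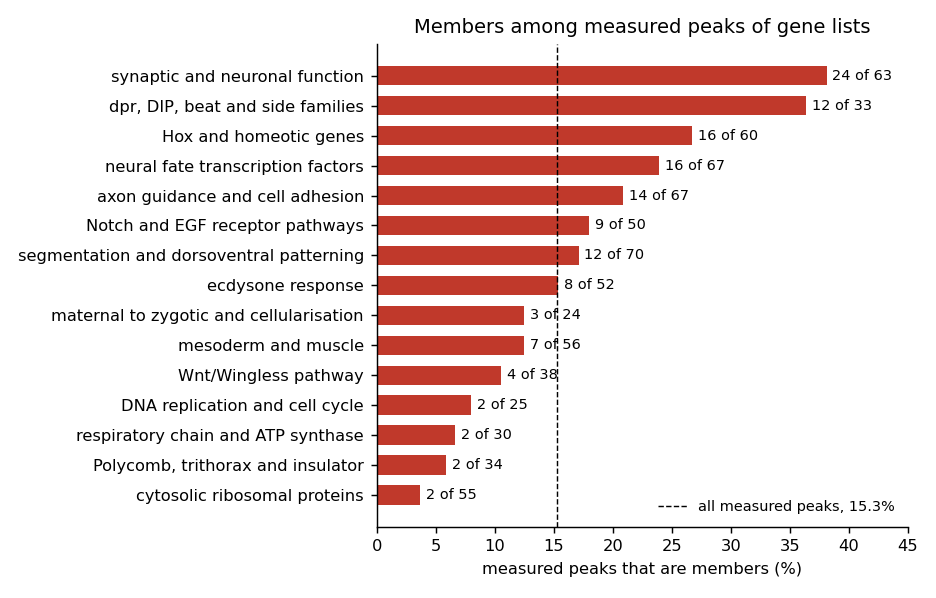
Share of the measured peaks nearest to genes of each list that were members, for the 15 lists with at least 20 measured peaks, with counts beside the bars. The dashed line is the 15.3% of all measured peaks. Synaptic, recognition and Hox genes lie above it, and ribosomal, Polycomb and respiratory genes below.

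The ewg gene itself was nearest to 5 measured peaks, and 2 of these were members. The intronic peak with its summit at 278193 of chromosome X had 710.9 in replicate 2, against 269.3 in replicate 1 and 233.5 in replicate 3, a log2 difference of 0.92. The peak 2348 bp upstream of the gene, in an intron of CG3777, had 257.1 in replicate 2, against 70.43 in replicate 1 and 75.67 in replicate 3, a log2 difference of 1.24. The promoter peak with its summit at 276251, strongest of the 5, had a log2 difference of 0.49, and the peak at 279540, which lay 94 bp from a start at 279634, had −0.16. The 5 peaks of a single gene thus fell on both sides of the threshold.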

How the data were processed

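Peak lists from 3 ChIP-seq replicates of 1 group were used on dm6. Per the file records, each replicate has a permissive list of 30000 regions and the series an optimal set thresholded by irreproducible discovery rate, and all lists share a control alignment. The signal of each peak and its −log10 q are the authors' deposited values, not equalised between lists. The aligner and peak caller were not given in the sources used here. Read counts are not in these lists, so depth is unknown, and intervals (95%, exact for shares, conditional for odds ratios) cover the counting of peaks only. The list of all replicates pooled and the dm3 lists were not used.

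Summits were matched within 100 bp, and the signal was scaled and thresholded as the report describes. Sequence within 100 bp of each summit (201 bases) came from the RefSeq dm6 assembly, and 13945 protein-coding genes on 6 chromosomes from Ensembl release 115. Non-coding genes were not used for nearest genes or location classes, so an intronic or intergenic summit may lie at the start of one. An alternative for the promoter share counted the starts of all annotated genes (odds ratio 1.36, adjusted exact p = 4.42e-05). The 10 motifs were sought on both strands, overlapping matches included. They were compared, with 6 features of location and GC content, by Fisher's exact test, two-sided, with p-values adjusted after Benjamini and Hochberg over the 16 features or over those left in a stratum. The procedure was tested on simulated data. Of the symbols in 18 gene lists, 20 matched no gene of the annotation and were left out. The members and lists were chosen with earlier results of these data known. Genes were named by a rule: the 15 largest differences, the 10 members strongest in replicates 1 and 3, the members of the 5 largest loci, up to 3 members per list, the peaks beside the threshold, and ewg. Alternatives changed the summit distance, scaling, pseudocount, threshold, window and replicates used. Strata of GC content, peaks off the X, and 2 alternatives on agreement between replicates were added after seeing the data. Tests came from scipy 1.17.1 and figures from matplotlib 3.10.9, with pandas 2.3.3 and numpy 2.4.6 under Python 3.11.15.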

Additional observations from a re-analysis of the deposited data

How the results depend on the processing

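The number of members moved with the definition, to 555 with a pseudocount of 0.25, 1576 and 536 at thresholds of 0.5 and 1.0, and 520 where replicate 2 had to exceed each of the others. Of the 896, 528 lay at or above the median pooled signal and 368 below it. The core site and GAGA odds ratios kept their call in all 22 alternatives each (1.48 to 16.4 and 1.72 to 4.84), and the high GC share in 20 (4.67 to 45, with 8.67 without replicate 1). The X share lost its call only below the median pooled signal (0.875).

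Promoter, intron and distal differences were less stable. The promoter odds ratio missed the threshold at threshold 1.0 (1.17), at or above the median pooled signal (1.09), above the median GC content (1.08), between 45% and 55% GC (1.01) and without replicate 3 (1.12, against 1.38 without replicate 1). The distal share lost its call at threshold 1.0 (0.815), at or above the median pooled signal (0.844), in GC-rich peaks (0.908) and between 45% and 55% GC (0.993). The intron share lost its call in GC-rich peaks (0.948) and reversed between 45% and 55% GC (1.11). The intergenic share, not called, reversed with the running median along signal removed (0.996) and below the median pooled signal (0.833), and was called at or above it (1.31). The palindrome did not differ outside promoters (1.00). It turned below 1 in GC-rich peaks (0.759, 0.461 to 1.21) and between 45% and 55% GC (0.757, 0.402 to 1.37), with intervals that include 1. It lost its call in 15 of its 21 alternatives and kept it in 3, among them promoter peaks (3.45). Outside promoters the DRE lay in only 2 members and 11 other peaks, too few to give a direction (1.14, 0.123 to 5.27). It lost its call in 5 of 22 alternatives, among them without replicate 1 (0.746). The homeodomain motif lost its call in 2 of 22 alternatives, above the median GC content (0.578) and between 45% and 55% GC (0.598). The M1BP site reversed without replicate 1 (1.21, against 0.481 without replicate 3), below the median pooled signal (1.02) and against peaks weaker in replicate 2 (1.78), and the Zelda site below the median pooled signal (0.653) and between 45% and 55% GC (0.809). The causes were not tested. The palindrome could not be set against peaks weaker in replicate 2, which held 0. Replicate 2 cannot be left out, since the members are defined by it, and the lists give no depth. No paired analysis was possible because there is 1 group.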
